A study of Rattus norvegicus with 9 samples.

Results

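Nppa and Nppb, the genes of the 2 cardiac natriuretic peptides, were followed in rat cardiomyocytes that went through hypoxia and reoxygenation (H/R) with or without the compound AS8351. They are 2 of the 30560 genes in the count tables and were taken by their Ensembl IDs, ENSRNOG00000008176 for Nppa and ENSRNOG00000008141 for Nppb. Both IDs were present in all 9 libraries and both passed the filter on low counts, with between 202630 and 558772 counts per library for Nppa and between 8167 and 34003 for Nppb. The count tables give no gene names, and the symbols rest on these 2 IDs.

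Total RNA was sequenced from 3 groups of 3 libraries of heart cardiomyocytes, called NRCM in the labels. The first group was kept in normoxia. The second, H/R-DMSO, spent 6 h at 0.1% oxygen in medium lacking glucose and sodium pyruvate. Reoxygenation followed for 12 h at 21% oxygen, with DMSO as vehicle. The third, H/R-AS8351, had the same hypoxia and reoxygenation, the latter in the presence of AS8351 at 0.5 µM, dissolved in DMSO. AS8351 is labelled as a Kdm5b inhibitor. Kdm5b is an enzyme that removes methyl groups from lysine 4 of histone H3. Whether DMSO was also added to the normoxia cells is not in the labels, nor whether each library had its own culture. The p-values therefore cover only library-to-library spread, possibly technical. The libraries held between 34442733 and 54888975 counts. Markers that would show the purity of the cardiomyocytes were not analysed here, because 0 of the 30 listed markers of cardiomyocytes, fibroblasts, endothelial cells, smooth muscle cells and macrophages could be paired with an ID. In such bulk RNA, fewer cells that express a gene and less of its RNA per cell cannot be told apart.

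Nppa encodes the precursor of atrial natriuretic peptide (ANP) and Nppb that of B-type natriuretic peptide (BNP). Heart muscle cells secrete both peptides, which bind the receptor guanylyl cyclase encoded by Npr1, raise cyclic GMP in kidney and blood vessels, and so promote salt excretion and relax vessels. Both genes are active in the fetal ventricle, are less active there after birth, and rise again under wall stretch and hypertrophic stimulation. Their RNAs are therefore widely used as readouts of cardiomyocyte stress, and BNP in blood as a marker of heart failure.

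In the RefSeq table of assembly GRCr8 the 2 genes are direct neighbours on chromosome 5, with Clcn6 on the far side of Nppa. Their promoters are shown because the 2 RNAs moved in the same direction in every comparison below. Many other genes moved alike, and a link between promoter letters and RNA levels was not tested. The sequences are the bases before the start site on the plus strand, from RefSeq GRCr8, at chr5:163711934-163712183 for Nppa and chr5:163699758-163699954 for Nppb. That of Nppb is shorter because an annotated transcript starts before the start site used in the table. Capitals mark every match, on either strand, to GATA (the core recognised by GATA factors), AAGTG (recognised by NKX2-5), CATTCC (the M-CAT element bound by TEAD factors) and TATAAA (the TATA box).
Nppa: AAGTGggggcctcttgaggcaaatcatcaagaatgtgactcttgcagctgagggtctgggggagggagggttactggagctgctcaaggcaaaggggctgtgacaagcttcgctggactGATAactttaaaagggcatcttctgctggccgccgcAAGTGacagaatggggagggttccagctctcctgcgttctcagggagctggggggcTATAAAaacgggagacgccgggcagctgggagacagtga
Nppb: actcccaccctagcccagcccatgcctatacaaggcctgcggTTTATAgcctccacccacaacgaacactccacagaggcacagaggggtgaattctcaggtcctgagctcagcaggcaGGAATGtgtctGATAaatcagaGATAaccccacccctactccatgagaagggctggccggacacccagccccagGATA

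The 2 windows held different sets of these letters. Counted back from the start site, Nppa had GATA at -131 to -128, AAGTG at -250 to -246 and at -95 to -91, and TATAAA at -39 to -34. Nppb had 3 GATA matches, at -120 to -117, -109 to -106 and -57 to -54. It also had a CATTCC at -131 to -126 and a TATAAA at -208 to -203, both on the opposite strand. Positions in Nppb are counted from the later start site used in the table. The last GATA of Nppb ends at the last printed base, directly before the earlier annotated transcript start. None of these matches overlapped a match to another motif. Short motifs of this kind are common: among the 33469 promoters of the table, 55.9% held GATA, 40.6% AAGTG, 12.1% CATTCC and 12.9% TATAAA in the 250 bases before the start site. Neither 250-base window held the letters of the AP-1 site (TGACTCA, in 4.05% of promoters) or the hypoxia response core (ACGTG, in 16.6%). Nor did either hold the exact CArG box bound by serum response factor (CCWWWWWWGG with W for A or T, in 1.497%). Inexact copies of a motif were not searched for, so a missing match does not show that a site is missing. A match is a description of letters, and factor binding was not measured in these libraries.

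Nppa RNA was lower after H/R, and with AS8351 it stood between H/R-DMSO and normoxia. Levels are given in CPM, counts divided by library size after TMM scaling, which takes the bulk of the genes as its reference. That reference was itself not still, as 8364 of the 15879 genes tested were called different between H/R-DMSO and normoxia, so a level is relative to the other RNA of its library and not an amount per cell. In normoxia the 3 libraries held 11407, 10862 and 11392 CPM of Nppa, and 5439, 5633 and 5703 CPM after H/R with DMSO. With AS8351 they held 7496, 8166 and 8016 CPM. The 3 groups did not overlap: every normoxia library was above every H/R-AS8351 library, and each of these above every H/R-DMSO library. Group means were 11220 ± 310.1 CPM (SD, n = 3) for normoxia, 5592 ± 137 CPM for H/R-DMSO and 7893 ± 352 CPM for H/R-AS8351. Separation between 2 groups was frequent among the 15879 genes tested. CPM lay wholly below normoxia for 27.5% of them in H/R-DMSO and 24.6% in H/R-AS8351. In H/R-AS8351 it lay wholly above H/R-DMSO for 18.2%. The share of genes with all 3 groups apart in the order of Nppa was not computed. Within groups the CPM varied by 2.44% to 4.46% (coefficient of variation). Counting alone would give at most 0.212% as the mean of a group's 3 libraries, so the depth did not limit the precision.

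Nppb RNA followed the same order at lower counts. It stood at 673, 661 and 616 CPM in normoxia, at 238, 227 and 234 CPM after H/R with DMSO and at 351, 344 and 335 CPM with AS8351. Again no library of one group fell in the range of another. Means were 650.1 ± 29.7 CPM (SD, n = 3) for normoxia, 233 ± 5.80 CPM for H/R-DMSO and 343 ± 8.13 CPM for H/R-AS8351. The coefficient of variation was between 2.37% and 4.56%, and counting alone would give at most 1.04% as the mean of a group's 3 libraries.

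**Figure D1:**
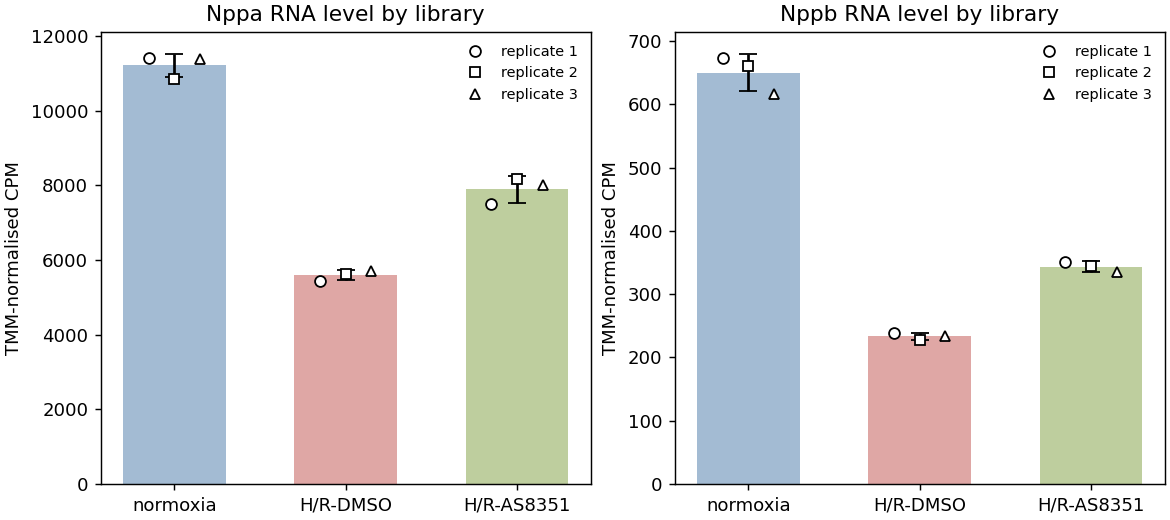
TMM-normalised CPM of Nppa (left) and Nppb (right) in the 9 libraries; bars are means of 3 libraries, error bars the SD, and symbols the single libraries by replicate number. For both genes every H/R-DMSO library lies below every H/R-AS8351 library, and these below every normoxia library.

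The first question was what H/R did to natriuretic peptide RNA. In H/R-DMSO against normoxia, both genes fell, Nppb by the larger factor. Nppa reached 49.8% of its normoxia level, with a 95% interval from 47.7% to 52.1%, or -1.005 ± 0.03 (SE) as a log2 fold change, with an adjusted p of 2.93e-28 (edgeR's quasi-likelihood test). Nppb reached 35.9% of its normoxia level, with an interval from 34.0% to 37.8%, or -1.48 ± 0.04 (SE) as a log2 fold change, with an edgeR adjusted p of 2.58e-31. A decrease at an adjusted p below 0.05 was itself common, in 25.2% of the 15879 genes tested. The size of the decrease was less common. Of the genes tested 4.77% had a larger decrease than Nppa and 2.22% a larger one than Nppb, and among the 4003 genes called lower the median log2 fold change was -0.43.

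The decrease could also be read without scaling, as the share of all counts in a library. Nppa alone made up 1.05% ± 0.0274 (SD, n = 3) of a normoxia library and 0.585% ± 0.0142 of an H/R-DMSO library. Nppb made up 0.0608% ± 0.00286 and 0.0244% ± 0.000651. Scaled to the total count in this way, the log2 fold changes were -0.84 for Nppa and -1.32 for Nppb, while the median of all genes moved by 0.16 upwards with the change of scaling, so that both genes stood as far below the other genes as before. Oxygen, medium and perhaps the solvent all differ between these 2 groups, and their parts cannot be told apart.

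The second question was whether AS8351 altered this response. Both genes were higher in H/R-AS8351 than in H/R-DMSO, with intervals that overlapped. Nppa was at 141% of its H/R-DMSO level (95% interval from 135% to 147%), or 0.50 ± 0.03 (SE) as a log2 fold change, with an edgeR adjusted p of 7.67e-17. Nppb was at 147% (interval from 140% to 155%), or 0.56 ± 0.04 (SE) as a log2 fold change, with an edgeR adjusted p of 8.87e-16. Of all genes tested, 13.1% were called higher with AS8351. Increases larger than that of Nppa were seen in 6.40% of the genes tested and larger than that of Nppb in 5.38%, and the median of the 2088 genes called higher was 0.30 on the log2 scale. Should the 3 libraries of each group stem from one dish, an effect of the dish cannot be told apart from that of AS8351.

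The third question was how far AS8351-treated cells stood from normoxia cells. Both genes were lower in H/R-AS8351 than in normoxia. Nppa was at 70.3% of the normoxia level (95% interval from 67.4% to 73.5%), or -0.51 ± 0.03 (SE) as a log2 fold change, with an edgeR adjusted p of 1.21e-17. Nppb was at 52.8% (interval from 50.1% to 55.6%), or -0.92 ± 0.04 (SE) as a log2 fold change, with an edgeR adjusted p of 1.24e-23. Lower calls made up 19.7% of the genes tested. A larger decrease than that of Nppa was measured for 7.90% of the genes tested, and a larger one than that of Nppb for 2.13%. Between H/R-AS8351 and normoxia, oxygen, medium, AS8351 and perhaps the solvent all differ, and their parts cannot be told apart.

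**Figure D2:**
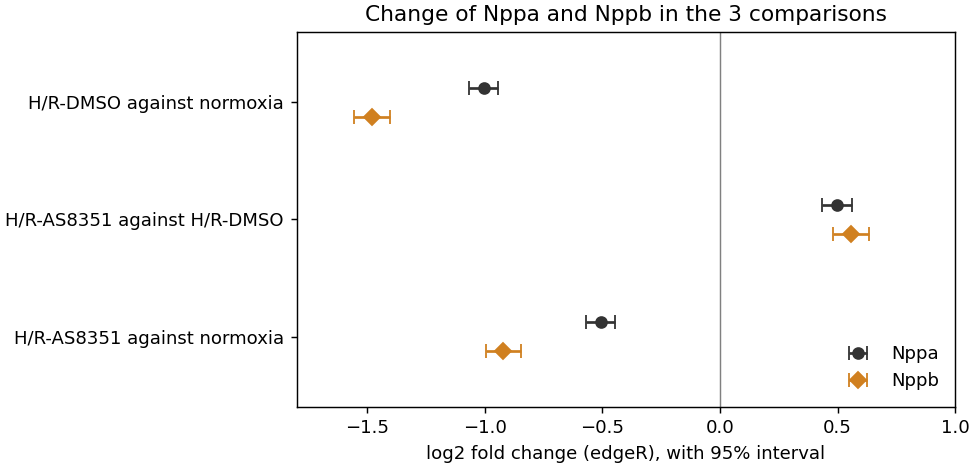
Log2 fold changes of Nppa (circles) and Nppb (diamonds) in the 3 comparisons, from edgeR's quasi-likelihood fit of all 9 libraries; bars are 95% intervals. The intervals of the 2 genes overlap where H/R-AS8351 is set against H/R-DMSO and lie apart in both comparisons with normoxia, where Nppb is the lower.

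**Figure D3:**
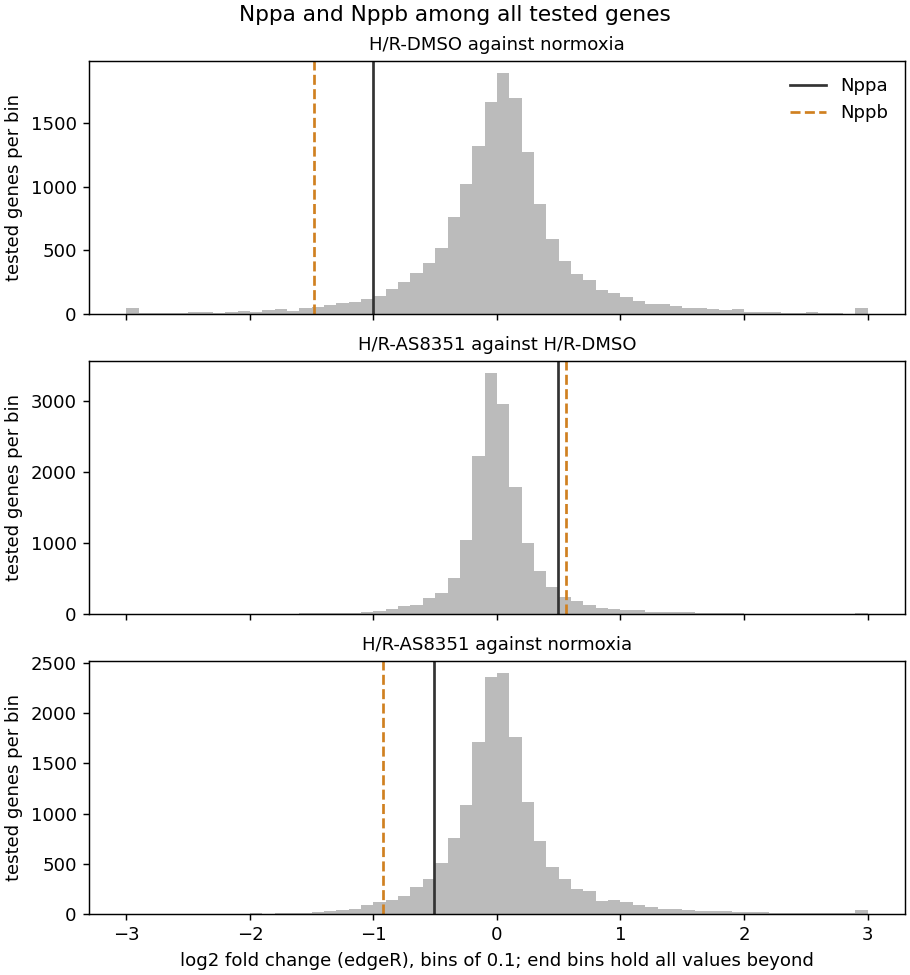
Distribution of the log2 fold changes of the 15879 tested genes in each comparison, in bins of 0.1, with Nppa (solid line) and Nppb (dashed line). Both genes lie in the lower tail in the comparisons with normoxia and in the upper tail when H/R-AS8351 is compared with H/R-DMSO.

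Whether the 2 genes changed by equal factors was read from the ratio of their counts within each library. This ratio does not depend on the scaling of the libraries. It compares counts and not molecules, since the transcripts differ in length, and only its change between groups is read here. Per 100 Nppa counts there were 5.90, 6.09 and 5.41 Nppb counts in the normoxia libraries. After H/R there were 4.38, 4.03 and 4.11 with DMSO and 4.69, 4.21 and 4.18 with AS8351. Every normoxia library was above all 6 H/R libraries, while the 2 H/R groups overlapped. Means were 5.80 ± 0.348 (SD, n = 3) for normoxia, 4.18 ± 0.185 for H/R-DMSO and 4.36 ± 0.284 for H/R-AS8351. The share of other gene pairs whose ratio separates normoxia from H/R was not computed. Of the 15879 genes tested, 8364 were called different between H/R-DMSO and normoxia, so a separated ratio may not be particular to this pair.

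The ratio differed across the 3 groups (exact permutation test on its log2 values over 1680 assignments, p = 0.0179, where the smallest possible is 0.00357). From normoxia to H/R-DMSO it fell by 0.47 on the log2 scale. From normoxia to H/R-AS8351 it fell by 0.41. Both pairs gave p = 0.1 in a two-sided exact permutation test, the smallest value that 3 against 3 libraries allow, and 0.15 after Benjamini-Hochberg adjustment over the 3 pairs. Between H/R-DMSO and H/R-AS8351 the difference was 0.06 on the log2 scale (exact permutation p = 0.5, adjusted 0.5), between 0.01 and 0.10 with any 1 of the 6 libraries left out, so a difference between these 2 groups was not detected. Replicate 1 of H/R-AS8351 had the lowest Nppa and the highest Nppb of its group.

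**Figure D4:**
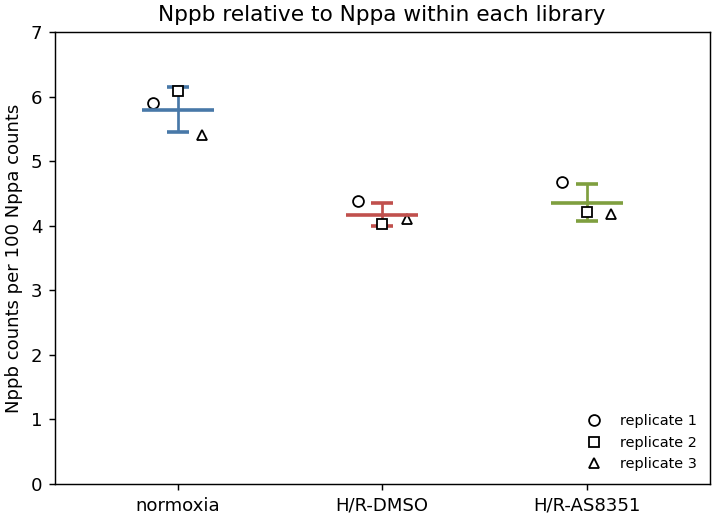
Nppb counts per 100 Nppa counts in the 9 libraries (symbols by replicate number), with the mean (wide line) and SD of each group of 3. The normoxia libraries lie between 5.41 and 6.09 and the 6 H/R libraries between 4.03 and 4.69.

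Where AS8351-treated cells stood can be given as a position on the CPM scale, with the H/R-DMSO mean at 0% and the normoxia mean at 100%. For Nppa the 3 libraries stood at 33.8%, 45.7% and 43.1%, a mean of 40.9% ± 6.25 (SD, n = 3). For Nppb they stood at 28.3%, 26.5% and 24.4%, a mean of 26.4% ± 1.95. Every library stood further towards normoxia in Nppa than in Nppb. This order does not mean a smaller fold rise of Nppb, which was at 147% of its H/R-DMSO level with AS8351, against 141% for Nppa. Nppb had fallen further after H/R, and a position is relative to that fall. The differences behind a position share the H/R-DMSO libraries, so it is a description without a test, and it moved with the scale: on log2 CPM the means were 49.4% for Nppa and 37.7% for Nppb. For comparison, the 691 genes called at least 2-fold lower in H/R-DMSO than in normoxia, which include both natriuretic peptide genes, had a median position of 35.9% and an interquartile range from 27.5% to 45.1%. Nppa lay inside this range, and 67.0% of the 691 genes stood at or below it. Nppb lay just under the range, with 23.2% at or below it. Nppa is only just among the 691 genes, at a log2 fold change of -1.005 in H/R-DMSO against normoxia. With total-count scaling its log2 fold change was -0.84, short of 2-fold. The 691 genes were chosen on the same H/R-DMSO and normoxia libraries that set 0% and 100%.

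**Figure D5:**
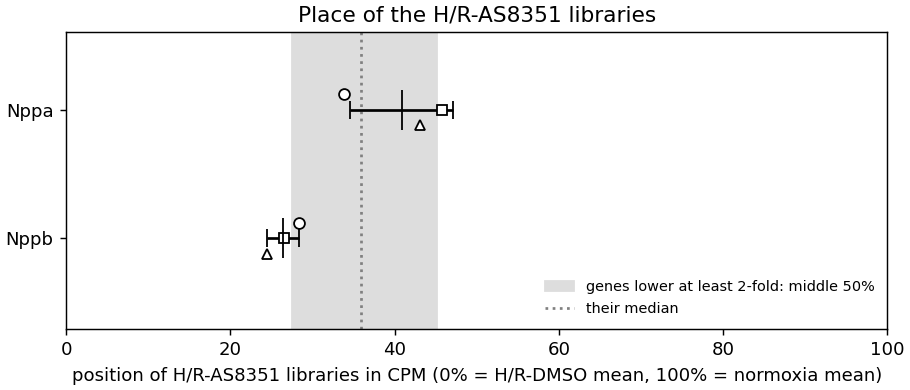
Position of the 3 H/R-AS8351 libraries in Nppa and Nppb CPM (symbols; vertical mark and bar, mean and SD), with the H/R-DMSO mean at 0% and the normoxia mean at 100%. The grey band is the interquartile range, 27.5% to 45.1%, of the 691 genes at least 2-fold lower in H/R-DMSO, and the dotted line their median.

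Many genes had a similar profile over the 9 libraries. Likeness was measured as Pearson's r of log2 CPM among 11264 other genes that averaged 5 CPM or more. The libraries form 3 groups, so that r mostly reflects the order and spacing of the group levels, and no p is given. Nppb had r = 0.98 with Nppa, yet 325 genes were closer to Nppa than Nppb was, and 282 closer to Nppb than Nppa was. For Nppa 149 genes reached r of at least 0.99, and for Nppb 90 genes.

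The gene most like Nppa was ENSRNOG00000017786 (r = 0.9993), which fell from 515 ± 13.4 CPM (SD, n = 3) in normoxia to 158 ± 6.74 CPM after H/R with DMSO and stood at 279 ± 20.7 CPM with AS8351. Its log2 fold changes were -1.70 after H/R and 0.82 with AS8351 (adjusted p = 2.05e-31 and 2.16e-19 by edgeR), larger than those of Nppa. Closest to Nppb was ENSRNOG00000018602 (r = 0.9991), with 313 ± 8.65 CPM in normoxia, 148 ± 4.85 CPM after H/R with DMSO and 196 ± 0.140 CPM with AS8351. Its log2 fold changes of -1.08 and 0.41 (adjusted p = 3.63e-26 and 2.50e-11 by edgeR) were smaller than those of Nppb. Each was less like the other peptide gene, with r = 0.984 between ENSRNOG00000017786 and Nppb and r = 0.983 between ENSRNOG00000018602 and Nppa. The files do not pair these IDs with names.

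The other genes of the natriuretic peptide system were listed by role. They were the related peptide gene Nppc, proteases with a part in precursor processing (Corin, Furin, Pcsk6) and the receptors (Npr1, Npr2, Npr3). The enzymes that break down the peptides (Mme, Ide) and the kinases and phosphodiesterases of cyclic GMP (Prkg1, Prkg2, Pde2a, Pde5a, Pde9a) were also listed. None of the 14 could be paired with an ID, nor could any of the 19 listed transcription factors known at the 2 genes, which include Gata4, Nkx2-5, Tbx5, Srf and Tead1. Of 48 genes listed in all, 0 have a value here, so the RNA of the receptors and processing enzymes and of Kdm5b was not analysed here.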

How the data were processed

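RNA was measured in 9 libraries, grouped by sample title. The authors deposited unnormalised read counts for Ensembl genes in 9 tables. The tools named in the submitters' processing notes are STAR 2.7.3a, Trimmomatic 0.39, DESeq2 1.32.0 and featureCounts 2.0.1, and the build they name is rn6. Whether the 30560 gene IDs belong to an annotation of that build was not tested. Neither annotation release, strandedness nor the handling of multi-mapped reads is given in the sources used here, so overlapping or antisense transcripts can share counts with a gene. Tables of the AS8351 group carry a different code, so its identity rests on the titles. No table pairs IDs with symbols: the RefSeq table (GRCr8, 47357 genes) gave an Ensembl ID for 0 genes, and Nppa and Nppb were identified by their known IDs. Promoters came from RefSeq GRCr8, and 2 of 2 genes matched by symbol.

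Counts were analysed with edgeR 4.0.16 in R 4.3.3. filterByExpr (minimum count 10, minimum total count 15) kept 15879 of 30560 genes, holding 99.97% of the counts. Libraries were TMM-scaled and a single quasi-likelihood model of the 3 group means covered all 9, with Benjamini-Hochberg adjustment over the genes tested and a threshold of 0.05. A standard error is the log2 fold change divided by the square root of the F value. Intervals are 95%. No library was a repeat of another within sampling noise (pairs of the same group had a chi-square per degree of freedom from 3.89 to 8.72). Named genes were the 2 genes, listed genes with a paired ID, and the gene with the highest Pearson r to each. The rule allowed 2 alike genes for each, limited to 2 unnamed IDs per direction, so 1 was taken for each. The genes and lists were chosen with earlier results of these data known. Alternatives were RLE, upper-quartile and total-count scaling, other filters, DESeq2 1.42.0, limma-voom (limma 3.58.1), a fit of 2 groups alone, the replicate number as a block, and each library left out.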

Additional observations from a re-analysis of the deposited data

How the results depend on the processing

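In all 108 refits of the fold changes of Nppa and Nppb, both genes kept their direction and an adjusted p below 0.05. After H/R the log2 fold change, each library left out in turn, lay between -1.03 and -0.99 for Nppa and between -1.52 and -1.45 for Nppb. With AS8351 it lay between 0.47 and 0.53 and between 0.54 and 0.58. Against normoxia it lay between -0.54 and -0.47 for Nppa and between -0.96 and -0.90 for Nppb in H/R-AS8351. The counts of called genes stayed within 1.5 times of their main values. The p of the ratio across the 3 groups was between 0.0107 and 0.0357 with a library left out (exact permutation test). The positions moved by more than their SD on the log2 CPM scale, to 49.4% for Nppa and 37.7% for Nppb, and with total-count scaling, to 47.3% and 29.2%. In both cases the shift follows from the change of scale. With libraries left out they lay between 38.2% and 44.4% for Nppa and between 25.4% and 27.4% for Nppb.

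The replicate numbers did not pair the libraries by the data: after removal of the group means, libraries with the same number had correlations from -0.0231 to 0.0417, and those with different numbers from -0.0445 to 0.0259. With the replicate block, the log2 fold changes after H/R were -1.01 for Nppa and -1.48 for Nppb, those with AS8351 0.50 and 0.56, and those of H/R-AS8351 against normoxia -0.51 and -0.92. The block gave 8539, 3940 and 6468 called genes in the 3 comparisons, against 8364, 3671 and 6257 without it. Permuted within replicate numbers, the ratio across the 3 groups had p = 0.0278 (exact permutation test).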
